A study of Mus musculus with 2 samples.

Results

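The Fc gamma receptors are the cell surface receptors through which myeloid cells bind immunoglobulin G. The genes described here are the activating receptors Fcgr1, Fcgr3 and Fcgr4, the inhibitory receptor Fcgr2b, and Fcer1g, the signalling chain that the activating receptors share. They were taken by symbol, and all 5 were found among the 31054 features of the deposited matrices. Expression was measured by single-cell RNA sequencing (10x Genomics 3' v2 chemistry) in cells sorted for the red fluorescent protein mCherry from pooled mouse tumours. Each age was 1 library: adult mice of 24 weeks and young mice of 4 weeks, both labelled d7. The labels name neither the tumour, the strain nor the number of animals in a pool. Cells are not replicates, so the libraries were compared without a test. Each interval describes counting error alone, and an effect of age cannot be told apart from one of the pool, the sort or the sequencing run. Cells were divided by the transcripts they carried. Cells with at least 10 UMIs (unique molecular identifiers, each 1 counted transcript) of the mCherry construct were set aside as mCherry-high. Of the rest, cells with at least 1% of their UMIs from S100a8 and S100a9 and at most 1 Csf1r UMI formed the neutrophil gate. All remaining cells with at least 1 UMI of Csf1r, the receptor for macrophage colony stimulating factor, are called Csf1r+ cells. These were split by Ly6c2 (a marker of inflammatory monocytes), C1qa (a complement subunit made by macrophages) and Mrc1 (the mannose receptor), each at 1 UMI or more.

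Activating Fc gamma receptors do not signal on their own. They sit in the membrane with a dimer of the Fcer1g chain, whose tyrosine motif (ITAM) is phosphorylated by Src family kinases when immune complexes cross-link the receptors and then recruits the kinase Syk. Fcgr2b has an inhibitory tyrosine motif (ITIM) in its own tail, which recruits the inositol phosphatase encoded by Inpp5d and dampens the same signal. The balance of activating and inhibitory receptors is known to set how strongly macrophages engulf antibody-coated cells and take up immune complexes for antigen presentation. In human monocytes, interferon gamma is known to raise activating receptors and interleukin 4 to raise the inhibitory one.

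On the GRCm38 build (GENCODE M21 annotation), Fcgr2b (chr1:170958617-170976547, minus strand), Fcgr4 (chr1:171018920-171029761, plus strand) and Fcgr3 (chr1:171051174-171064935, minus strand) lie side by side within 106 kb. Fcer1g (chr1:171229572-171234365, minus strand) lies on the same chromosome, and Fcgr1 (chr3:96282909-96293969, minus strand) is on another. The promoters of the genes with the largest adult and young differences are given here, from the RefSeq table of GRCm38.p6, 250 bases before to 50 bases after the transcription start. Capitals mark matches to 3 motifs searched on both strands: TTCNNNGAA (GAS, bound by STAT factors), GAGGAA (the core bound by the myeloid factor PU.1, the product of Spi1) and the interferon-stimulated response element (a pair of GAAA sites on 1 strand with 2 bases between them).
Fcgr1 (chr3:96293920-96294219, minus strand): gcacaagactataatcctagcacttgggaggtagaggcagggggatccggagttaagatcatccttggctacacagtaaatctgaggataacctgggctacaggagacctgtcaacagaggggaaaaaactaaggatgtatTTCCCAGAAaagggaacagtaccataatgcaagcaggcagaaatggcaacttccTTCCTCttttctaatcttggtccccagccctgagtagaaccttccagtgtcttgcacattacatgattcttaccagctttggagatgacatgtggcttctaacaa
Fcgr4 (chr1:171018676-171018975, plus strand): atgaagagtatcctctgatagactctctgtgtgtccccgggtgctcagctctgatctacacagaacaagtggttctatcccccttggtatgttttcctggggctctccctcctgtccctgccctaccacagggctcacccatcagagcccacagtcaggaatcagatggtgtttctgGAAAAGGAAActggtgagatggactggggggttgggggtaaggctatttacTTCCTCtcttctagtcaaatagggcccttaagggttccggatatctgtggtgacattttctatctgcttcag
Fcgr2b (chr1:170976022-170976321, minus strand): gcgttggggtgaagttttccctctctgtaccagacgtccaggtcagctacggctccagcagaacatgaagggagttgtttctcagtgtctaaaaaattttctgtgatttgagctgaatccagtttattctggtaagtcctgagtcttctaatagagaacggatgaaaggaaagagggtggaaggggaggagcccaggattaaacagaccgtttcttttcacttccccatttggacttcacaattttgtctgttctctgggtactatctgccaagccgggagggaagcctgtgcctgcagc
The Fcgr1 window held 1 GAS match, 109 bases before the start, and 1 PU.1 core match, 55 bases before it. The Fcgr4 window held 1 PU.1 core match 22 bases before the start and 1 response element match 73 bases before it. Both Fcgr3 windows held a PU.1 core match, and the windows of Fcgr2b and Fcer1g held none of the 3. Among the 32851 promoters of the table, 8.30% held a GAS match, 28.3% a PU.1 core match and 3.44% a response element match. These matches describe the letters only.

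The adult library held 70988070 UMIs in 6279 barcodes and the young library 84862471 in 7558, and 5774 adult and 7090 young cells passed the filters. Median depth was 9660 UMIs per adult cell and 9842 per young cell. The libraries shared 111 barcode sequences. Csf1r+ cells made up 4364 adult and 5526 young cells, or 75.6% and 77.9% of cells. Despite the sort, their median mCherry count was 0 UMIs in both libraries. In Csf1r+ cells all 8 macrophage markers and all 5 monocyte markers reached 10 CPM (counts per 1000000 UMIs of the class) in both libraries. Csf1r, which draws the class, is among the macrophage markers, so its part was fixed in advance. All these markers also reached 10 CPM in the neutrophil gate, where the sum of each list was lower. Monocyte markers summed to 4287 CPM in adult and 4614 CPM in young Csf1r+ cells, against 1503 CPM and 2490 CPM in the gate. The 7 T cell markers summed to 21.1 CPM in adult and 20.7 CPM in young Csf1r+ cells. The mast cell markers, which include Fcer1a and Ms4a2, the partners of Fcer1g in the IgE receptor, summed to 0.041 CPM in adult and 0 CPM in young Csf1r+ cells.

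In Csf1r+ cells the activating receptors Fcgr1 and Fcgr4 stood lower in the adult library, the inhibitory receptor Fcgr2b stood higher, Fcgr3 was nearly level and Fcer1g was modestly lower. Levels are the CPM of UMIs summed over the class. Fcgr1, the high-affinity receptor for monomeric immunoglobulin G, had 613 CPM in adult and 880 CPM in young cells, a ratio of 0.697 (95% interval 0.687 to 0.707). Fcgr4, which pairs with Fcer1g and binds immunoglobulin G complexes, had 594 CPM in adult and 923 CPM in young cells, a ratio of 0.643 (0.634 to 0.653). Fcgr3, the low-affinity activating receptor, had 1187 CPM in adult and 1239 CPM in young cells, a ratio of 0.958 (0.947 to 0.968). So 2 of the 3 activating receptors were lower in the adult library by 1.44-fold (Fcgr1) and 1.55-fold (Fcgr4), while Fcgr3 differed by 1.04-fold. Fcgr2b had 694 CPM in adult and 497 CPM in young cells, a ratio of 1.40 (1.38 to 1.42). Fcer1g had 4788 CPM in adult and 5811 CPM in young cells, a ratio of 0.824 (0.820 to 0.828). No interval of the 5 ratios included 1, since Csf1r+ cells hold 28682 or more UMIs of each gene in either library, but that precision says nothing of how far 2 libraries of the same age would differ.

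Against all 6487 genes that reached 10 CPM in Csf1r+ cells of either library, whose median log2 ratio of adult over young was -0.04, Fcgr4 and Fcgr1 lay near the low end and Fcgr2b near the high end. The log2 ratio (5 CPM added to each level) was -0.63 for Fcgr4, with 1.85% of genes lower, and -0.52 for Fcgr1, with 3.02% lower. It was 0.48 for Fcgr2b, with 2.62% of genes higher. Fcer1g, at -0.28, had 11.4% of genes below it, and Fcgr3, at -0.06, had 45.1%. A gene was counted as higher or lower at 1.5-fold or more with an interval that excluded 1. By that count Fcgr4 was the only one of the 5 past the limit, as lower, and none was past it as higher. The background was 3.41% of all genes lower and 2.48% higher. Fcgr4 sits close to the limit (log2 0.58). Its log2 ratio was -0.57 when cells were thinned to equal depth before the classes were drawn. With levels averaged over subclasses of equal weight, it was -0.58.

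**Figure D1:**
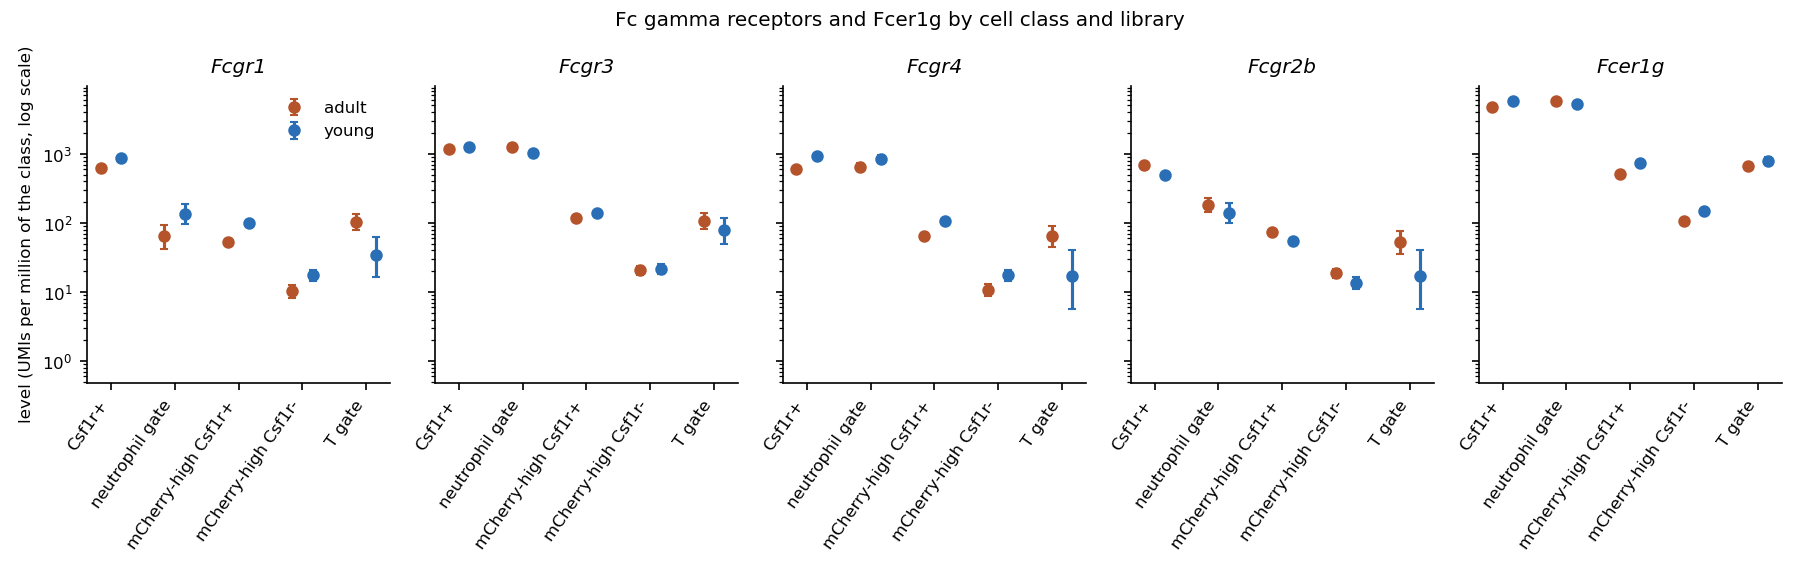
Level of each gene (CPM of the class, log axis) in 5 cell classes of the adult (left, brown) and young (right, blue) library, with 95% exact Poisson intervals. Fcgr1 and Fcgr2b are lower in the neutrophil gate than in Csf1r+ cells, Fcgr3, Fcgr4 and Fcer1g are close to their Csf1r+ levels there, and all 5 genes are low in mCherry-high Csf1r- cells.

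The receptor pool of Csf1r+ cells thus had a different make-up in the libraries, with more of the inhibitory receptor in the adult one. Fcgr2b made up 22.5% of all UMIs of the 4 receptors in adult Csf1r+ cells (22.3 to 22.7%, exact binomial, 33536 of 149161 UMIs) and 14.0% in young cells (13.9 to 14.2%, 30262 of 215602 UMIs). The difference was 8.45 percentage points (8.19 to 8.71). Put as a ratio, there were 3.45 activating UMIs for each Fcgr2b UMI in adult cells and 6.12 in young cells. Among the activating receptors, the shares of Fcgr1 and Fcgr4 were lower in the adult library and that of Fcgr3 was higher. Fcgr1 took 19.9% of the pool in adult and 24.9% in young cells. Fcgr4 took 19.2% in adult and 26.1% in young cells, and Fcgr3 took 38.4% in adult and 35.0% in young cells. Set against the receptors it carries, Fcer1g differed little, at 2.0 UMIs per activating receptor UMI in adult and 1.9 in young cells.

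The same UMIs were also described cell by cell, with each cell thinned at random to 3000 UMIs. This left out 136 adult and 226 young Csf1r+ cells of lower depth. Fcgr2b had a UMI in 80.8% of adult (79.6 to 81.9%) and 68.9% of young Csf1r+ cells (67.6 to 70.2%). Fcgr1 had one in 75.1% of adult and 87.4% of young cells, and Fcgr4 in 73.9% of adult and 88.0% of young cells. Fcgr3 was found in 93.0% of adult and 94.3% of young cells, and Fcer1g in 99.8% and 99.9%. Without thinning, the shares were 95.7% of adult and 92.3% of young cells for Fcgr2b, 94% and 97% for Fcgr1, and 92.0% and 96.7% for Fcgr4, so each receptor was found in most cells of both libraries. All 4 receptors together were found in 46.1% of adult and 51.2% of young thinned cells. As background, mCherry-high Csf1r- cells, with median depths of 25672 UMIs in adult and 22338 UMIs in young, had a thinned share of 3.11 to 7.61% in adult and 2.38 to 5.71% in young cells for the 4 receptors, and of 23.5% and 30.5% for Fcer1g. Without thinning, these background shares were 20.9 to 35.1% in adult and 26.5 to 36.7% in young cells for the receptors, and 73.5% and 82.3% for Fcer1g. Each gene was thus found in a larger share of Csf1r+ cells than of these cells, with or without thinning. Both kinds of receptor were found together in 80.0% of adult and 68.8% of young Csf1r+ cells at equal depth. Activating receptors alone were found in 18.7% of adult and 30.8% of young cells, and Fcgr2b alone in 0.757% of adult and 0.113% of young cells. Among cells with at least 5 receptor UMIs after thinning (3633 adult, 4944 young), the median Fcgr2b share per cell was 20% in adult and 11.8% in young cells. The quartiles ran from 11.1 to 33.3% in adult cells and from 0 to 21.1% in young cells, so the per-cell shares of the libraries overlapped widely. Cells whose receptor UMIs were mostly Fcgr2b (over 50%) were 5.34% of adult and 1.25% of young cells.

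**Figure D2:**
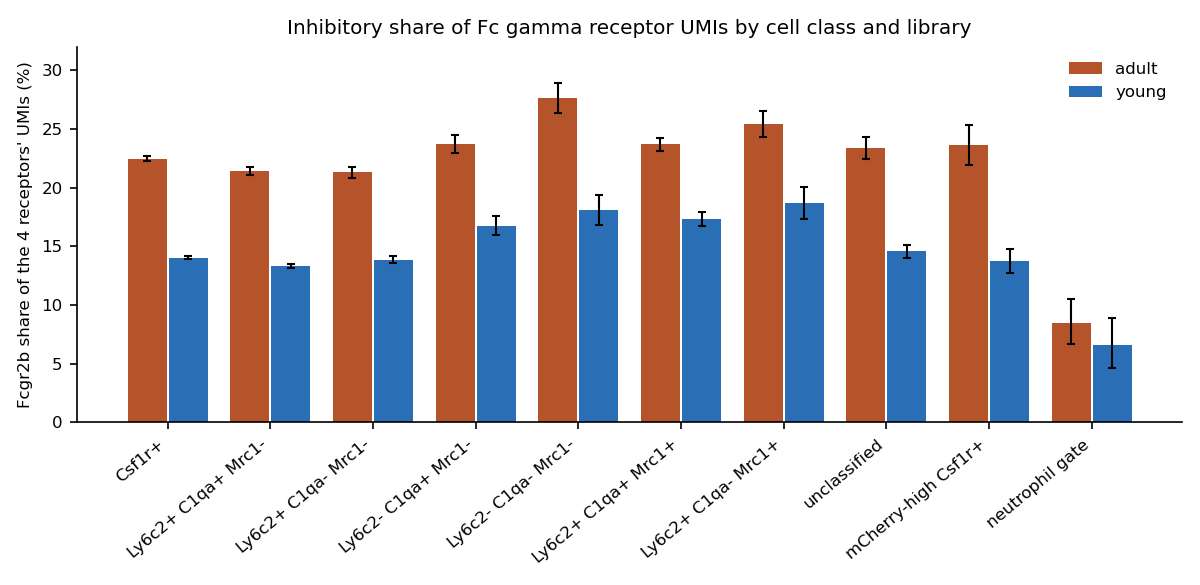
Fcgr2b UMIs as a percentage of the UMIs of Fcgr1, Fcgr2b, Fcgr3 and Fcgr4 in 10 cell classes (Csf1r+ cells, their 6 subclasses of at least 50 cells, unclassified cells, mCherry-high Csf1r+ cells and the neutrophil gate) of the adult (left, brown) and young (right, blue) library, with exact binomial 95% intervals. Among these classes the adult bar is the higher one, 22.5% against 14.0% in Csf1r+ cells, and the intervals overlap only in the neutrophil gate.

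The make-up of Csf1r+ cells differed between the libraries, so the genes were compared within subclasses. Ly6c2+ cells were 80.0% of adult and 91.3% of young Csf1r+ cells, C1qa+ cells 62.5% and 69.4%, and Mrc1+ cells 19.8% and 6.99%. Of the 8 combinations, 6 held at least 50 cells in both libraries. In all 6 the Fcgr2b share was higher in the adult library, by 6.37 to 9.59 percentage points, and the 2 ranges (21.3 to 27.7% in adult, 13.3 to 18.7% in young) did not overlap. The largest subclass, Ly6c2+ C1qa+ Mrc1- cells (1625 adult, 3263 young), had 21.4% in adult and 13.3% in young. Ly6c2- C1qa- Mrc1- cells (230 adult, 173 young) had the widest gap, 27.7% in adult and 18.1% in young. The other 2 combinations, with 39 and 9 young cells, had 23.9% in adult and 18.2% in young, and 26.1% in adult and 23.7% in young.

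Gene by gene, Fcgr1, Fcgr4 and Fcer1g were lower and Fcgr2b was higher in the adult library in 6 of 6 of these subclasses, and Fcgr3 was lower in 5 of 6. The log2 ratio ran from -0.76 to -0.42 for Fcgr1 and from -0.86 to -0.41 for Fcgr4, with 2 and 3 subclasses past the 1.5-fold limit. For Fcgr2b it ran from 0.21 to 0.50 and for Fcer1g from -0.37 to -0.23, with no subclass past the limit. The share of all genes past the limit was not taken within subclasses, so these counts have no background to be read against. Fcgr2b differed most in the most common subclass, Ly6c2+ C1qa+ Mrc1-, with 671 CPM in adult and 472 CPM in young cells. It differed least in Ly6c2- C1qa- Mrc1- cells, with 680 CPM in adult and 587 CPM in young cells, where instead Fcgr4 (427 CPM in adult, 778 CPM in young) and Fcgr1 (402 CPM in adult, 683 CPM in young) differed most. When the CPM of each library was first averaged over the 6 subclasses with equal weight, the log2 ratio of Fcgr2b was 0.31. It was 0.48 for Csf1r+ cells as sampled. In the smallest combination, Ly6c2- C1qa- Mrc1+, Fcgr2b had 851 CPM in adult and 1047 CPM in young cells, from 70 young UMIs in 9 cells. With the CPM averaged over all 8 combinations, the log2 ratio of Fcgr2b was 0.19.

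**Figure D3:**
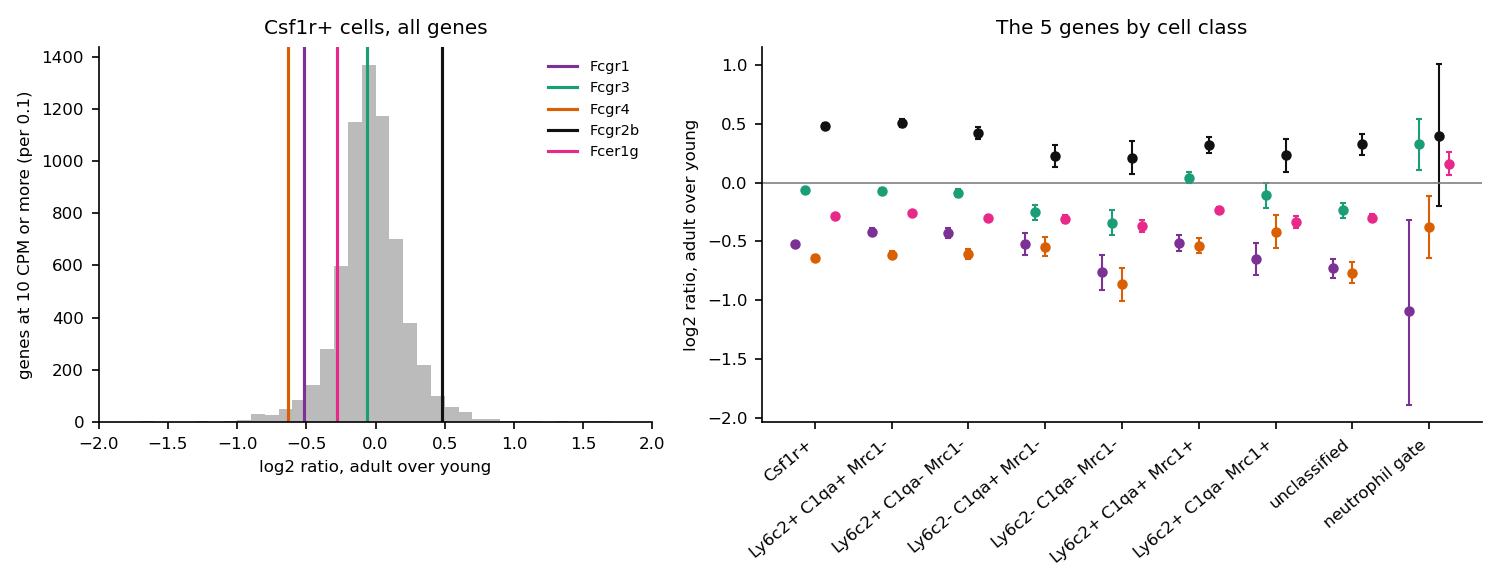
Left, log2 ratio of adult over young in Csf1r+ cells for genes at 10 CPM or more (bars, genes per 0.1; 5 genes above 2 are outside the axis) with lines at the 5 genes, 5 CPM added. Right, log2 ratio without added counts and 95% interval in Csf1r+ cells, their 6 subclasses of at least 50 cells, unclassified cells and the neutrophil gate (colours as at left). In these 9 classes Fcgr2b lies above 0 and Fcgr1 and Fcgr4 below it, and Fcer1g lies below 0 except in the neutrophil gate.

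Within each library, the receptors differed along the axis from Ly6c2+ to Ly6c2- cells. Fcgr1 was higher in Ly6c2+ than in Ly6c2- cells, with 651 CPM against 455 CPM in the adult library (1.43-fold) and 894 CPM against 687 CPM in the young library (1.3-fold). Fcgr4 was 1.13-fold and 1.11-fold higher in Ly6c2+ cells of the adult and young library. Fcgr2b was level in the adult library, with 696 CPM in Ly6c2+ and 686 CPM in Ly6c2- cells. In the young library it was lower in Ly6c2+ cells, with 490 CPM against 588 CPM. Fcgr3 and Fcer1g differed by at most 1.08-fold in either library. The Fcgr2b share was therefore lower in Ly6c2+ than in Ly6c2- cells, with 22.0% against 24.6% in the adult and 13.8% against 17.4% in the young library. None of the 5 genes passed 1.5-fold in the same direction in both libraries, a limit that 0.43% of 6282 genes passed as higher and 0.605% as lower in Ly6c2+ cells.

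Thinned cells binned by their Ly6c2 UMIs (0, 1 to 2, 3 to 5, and 6 or more of 3000) showed a graded order. The Fcgr2b share was 24.8, 23.3, 22.2 and 19.0% over the 4 bins in the adult library and 16.5, 15.2, 13.9 and 11.6% in the young library. Fcgr1 was 512, 576, 724 and 865 CPM over these bins in the adult library and 746, 789, 935 and 1094 CPM in the young library. Fcgr2b was 741, 734, 723 and 608 CPM in the adult library and 576, 529, 489 and 424 CPM in the young library. Fcgr4 held between 586 and 620 CPM in the adult library and between 900 and 921 CPM in the young library. Cells richest in Ly6c2 thus had the most Fcgr1 and the least Fcgr2b in both libraries, and Fcgr4 showed no such order. In every bin the adult share exceeded the young one, and the adult bin with the most Ly6c2 (19.0%) was above the young bin with none (16.5%).

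In Mrc1+ cells Fcgr2b was higher and Fcgr1 lower than in Mrc1- cells, and by C1qa each of the 5 genes differed by at most 1.12-fold. Fcgr2b had 779 CPM in Mrc1+ against 666 CPM in Mrc1- cells of the adult library (1.17-fold) and 647 CPM against 483 CPM in the young library (1.34-fold). Fcgr1 had 538 CPM in Mrc1+ against 638 CPM in Mrc1- cells of the adult library and 806 CPM against 887 CPM in the young library. At equal depth too, the share was higher in cells with an Mrc1 UMI than in cells with none. In thinned adult cells with 0, 1 and at least 2 Mrc1 UMIs the Fcgr2b share was 22.3, 24.6 and 31.2%, the last over 82 cells. In young cells it was 13.9, 17.9 and 18.1%, the last over 22 cells (13.7 to 23.3%) and level with the bin before it. Between C1qa+ and C1qa- cells the share differed little, with 22.4% against 22.6% in the adult library and 13.9% against 14.5% in the young library. Fcgr4 was 1.11-fold higher in C1qa+ cells of both libraries, and Fcgr1 was lower there, by 1.12-fold in the adult and 1.09-fold in the young library. No member passed the 1.5-fold limit in either split, against 0.766% of genes higher and 0.399% lower in Mrc1+ cells, and 0.388% higher and 0.323% lower in C1qa+ cells. The cells on the sides of these splits differed in depth, with a median of 13183 UMIs in adult Mrc1+ cells and 9618 UMIs in adult Mrc1- cells.

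**Figure D4:**
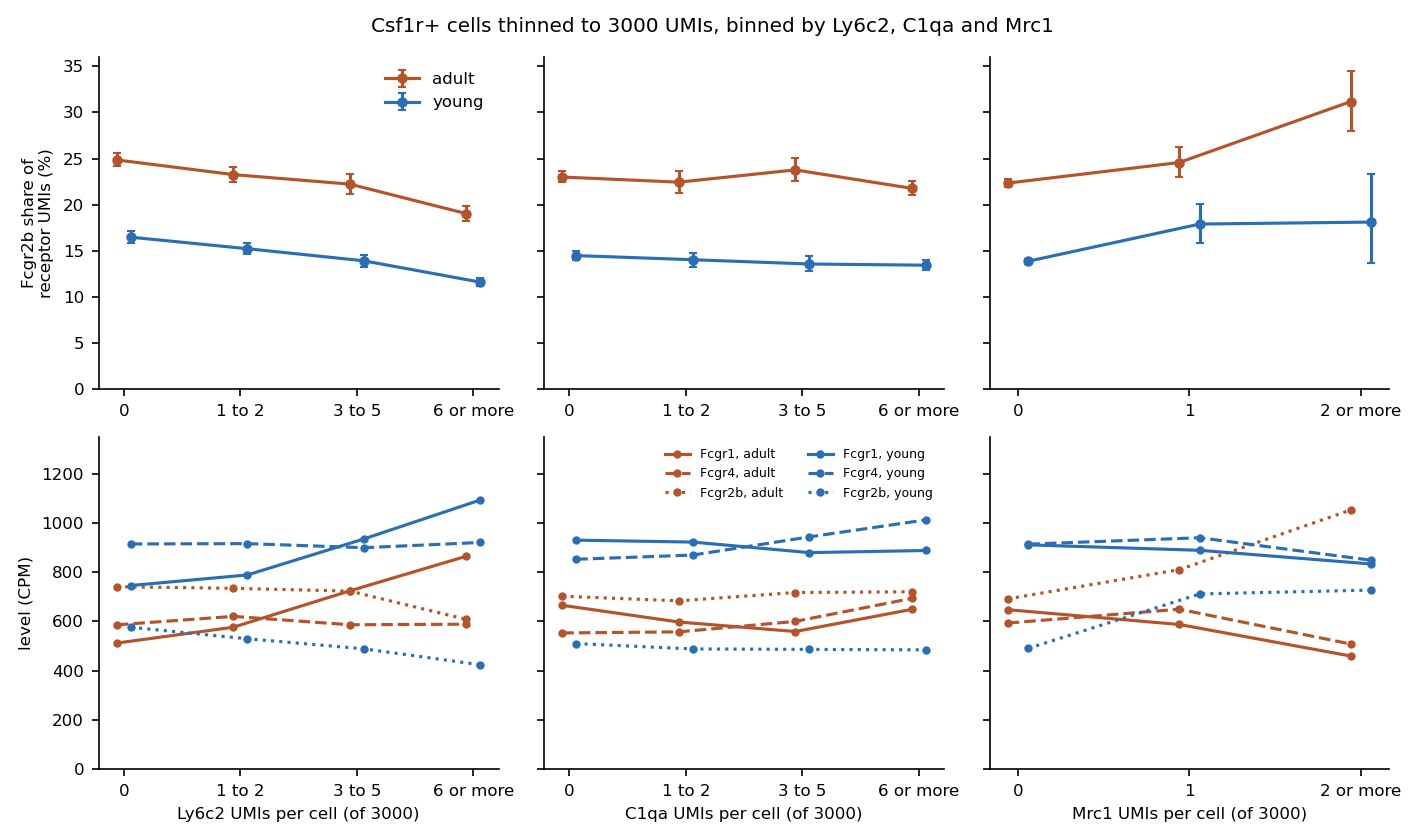
Csf1r+ cells thinned to 3000 UMIs and binned by UMIs of Ly6c2, C1qa or Mrc1 (x axis), in the adult (brown) and young (blue) library. Top, Fcgr2b share of receptor UMIs with exact binomial 95% intervals, which is lower with more Ly6c2 UMIs; bottom, CPM of Fcgr1 (solid), Fcgr4 (dashed) and Fcgr2b (dotted), where Fcgr1 is higher with more Ly6c2 UMIs in both libraries.

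Cells of the neutrophil gate (189 adult, 116 young) carried a different receptor set, with much less Fcgr1 and Fcgr2b than Csf1r+ cells and about as much Fcgr3, Fcgr4 and Fcer1g. All 9 neutrophil markers reached 10 CPM in both libraries. In Csf1r+ cells 6 of the 9 did so in adult and 4 in young cells. The 8 macrophage markers summed to 1107 CPM in adult and 994 CPM in young gate cells, against 8066 CPM and 8842 CPM in Csf1r+ cells. S100a8 and S100a9 are among the neutrophil markers and Csf1r among the macrophage markers. The gate is drawn on these genes, so their part was fixed in advance. Fcgr1 had 63.8 CPM in adult and 136 CPM in young gate cells, from 25 and 36 UMIs, which was 9.61-fold and 6.47-fold lower than in Csf1r+ cells of the same library. Fcgr2b had 184 CPM in adult and 140 CPM in young gate cells, 3.78-fold and 3.55-fold lower than in Csf1r+ cells. Both were past the limit as lower in both libraries, which held for 27.6% of 6464 genes, and 11.4% were past it as higher. The part of macrophage RNA in these UMIs was not tested.

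Fcgr3, Fcgr4 and Fcer1g, by contrast, stood in the neutrophil gate near their levels in Csf1r+ cells. Fcgr3 had 1273 CPM in adult and 1016 CPM in young gate cells, between 1.07-fold above and 1.22-fold below the level of Csf1r+ cells. Fcgr4 had 648 CPM in adult and 843 CPM in young gate cells, and Fcer1g 5858 CPM and 5237 CPM. The Fcgr2b share of the pool was lower than in Csf1r+ cells of the same library. Of the receptor UMIs in the gate, Fcgr2b made up 8.47% in adult (6.69 to 10.5%) and 6.55% in young cells (4.65 to 8.91%), and these intervals overlapped. Fcgr3 took 58.7% of the pool in adult and 47.6% in young gate cells. Between the libraries, Fcgr1 was past the limit as lower in adult gate cells (ratio 0.469, interval 0.270 to 0.803), and the other 4 genes were within it. The background in this gate was 5.89% of 5757 genes lower and 3.06% higher. The median cell of the gate held 1900 UMIs in adult and 2131 UMIs in young, which limits what can be read from single cells: without thinning, Fcgr3 was found in 80.4% of adult and 72.4% of young gate cells, and Fcgr2b in 20.6% and 21.6%.

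The 5 genes were scarce in cells rich in the mCherry construct and without Csf1r (302 adult, 226 young). Fcgr1, Fcgr2b, Fcgr3 and Fcgr4 had 10.3 to 20.5 CPM in adult and 13.7 to 21.5 CPM in young cells, and Fcer1g had 108 CPM in adult and 147 CPM in young cells. mCherry-high cells that also held Csf1r (174 adult, 197 young) had the highest median depths, 43620 UMIs in adult and 52012 UMIs in young cells. Their Fcer1g level was 506 CPM in adult and 735 CPM in young cells, well under that of Csf1r+ cells. Their Fcgr2b share was 23.6% in adult and 13.7% in young cells, and their receptor pool thus had nearly the make-up of Csf1r+ cells of the same library. Whether these barcodes hold 1 cell or more was not tested. Among Csf1r+ cells, the thinned Fcgr2b share was 22.8% in adult and 14.0% in young cells with no mCherry UMI, and 21.4% in adult and 13.5% in young cells with 1.

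Lymphoid gates held few receptor UMIs. T gate cells (103 adult, 40 young) had Csf1r at 0 and at least 2 UMIs of the Cd3 genes. They had 53.4 to 107 CPM of each receptor in adult and 17.3 to 79.4 CPM in young cells. The level was higher in the adult library for all 4, from 29 to 58 adult and 5 to 23 young UMIs. The interval of the Fcgr3 ratio included 1 (0.818 to 2.29). Without thinning, the share of cells with a UMI was lower in the adult library for Fcgr1 (9.71% against 17.5%) and Fcgr3 (15.5% against 20%). It was 12.6% against 12.5% for Fcgr2b and 16.5% against 12.5% for Fcgr4. Macrophage markers summed to 958 CPM in adult and 228 CPM in young T gate cells, and their part in the receptor levels was not tested. Fcer1g stood at 667 CPM in adult and 794 CPM in young T gate cells, where the 6 NK cell markers summed to 647 CPM and 4197 CPM. In the NK gate (11 adult, 8 young cells) Fcer1g had 2165 CPM in adult and 2847 CPM in young cells. Fcgr3, the receptor known from NK cells, had 5 UMIs in adult and 9 in young NK gate cells. Cells positive for Ccr7 and Fscn1, markers of mature dendritic cells, had 25 receptor UMIs over 22 adult cells and 23 over 16 young cells, too few to compare. No cell met the B gate, so Fcgr2b in B cells, where it is the main Fc gamma receptor, could not be described. Cells left unclassified, none of which held a Csf1r UMI (609 adult, 961 young, median depths 4593 and 4924 UMIs), had a Fcgr2b share of 23.4% in adult and 14.6% in young cells, within 1 percentage point of Csf1r+ cells in each library.

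The signalling genes downstream of the receptors differed little between the libraries in Csf1r+ cells. For these and the lists that follow, the background was 2.48% of all genes past the limit as higher and 3.41% as lower. Of 22 genes of the ITAM pathway, 20 reached 10 CPM, 1 was past the 1.5-fold limit as higher in the adult library and 0 as lower, with a median log2 ratio of -0.06 beside -0.04 for all genes. The higher one was the kinase Src, with 11.6 CPM in adult and 7.25 CPM in young cells. Malt1, a protease downstream of Card9 and Bcl10, had 285 CPM in adult and 192 CPM in young cells, and Vav3, a guanine exchange factor, 22.4 CPM and 31.2 CPM, both within the limit. Of 12 genes of inhibitory phosphatase signalling, all measured, 0 were past the limit as higher and 1 as lower, with a median of -0.17. That gene was the adaptor Dok1, with 34.3 CPM in adult and 51.6 CPM in young cells, while its relative Dok2 had 160 CPM and 122 CPM.

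Other receptors and adaptors of the same kinds were mixed. Tyrobp, the adaptor most like Fcer1g in function, had 3332 CPM in adult and 3861 CPM in young cells, and Hcst 55.5 CPM and 68.6 CPM, both within the limit and with a median of -0.25. Of 9 listed receptors taken to pair with Fcer1g, 5 were measured, 0 past the limit as higher and 1 as lower. The lower one was Clec4d, a C-type lectin, with 396 CPM in adult and 768 CPM in young cells. Clec4n had 545 CPM in adult and 605 CPM in young cells, and Clec5a, which is in this list but is known to pair with Tyrobp, 321 CPM and 272 CPM. Of 14 listed inhibitory ITIM receptors, 11 were measured, 1 past the limit as higher and 0 as lower, with a median of -0.07. Cd33 was the higher one, with 21.9 CPM in adult and 8.03 CPM in young cells. Cd300a and Cd72 had 39.0 CPM and 77.4 CPM in adult cells, against 58.2 CPM and 113 CPM in young cells, both lower in the adult library and within the limit. Among 13 other immunoglobulin receptors only Fcgrt and Fcrls were measured. Fcgrt, the neonatal Fc receptor, had 20.5 CPM in adult and 21.2 CPM in young cells, and Fcrls, an Fc receptor-like gene known from microglia, 13 CPM and 1.15 CPM (628 and 70 UMIs), which put it past the limit as higher.

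Genes of the interferon gamma and interleukin 4 responses were also compared in Csf1r+ cells. Of 16 interferon gamma response genes, 13 were within the limit. In the adult library 2 were past it as lower and 1 as higher, with a median of -0.27. Among all genes 3.41% were lower and 2.48% higher, with a median of -0.04. Irgm1 had 141 CPM in adult and 232 CPM in young cells and Gbp4 208 CPM and 321 CPM, both guanosine triphosphatases of cell defence. Ciita, the class II transactivator, was the higher one, with 44.7 CPM in adult and 26.8 CPM in young cells. Of 12 interleukin 4 response genes, 8 were measured, 7 past the limit as higher and 0 as lower, with a median of 1.58. The chemokine Ccl24 had 1055 CPM in adult and 34.7 CPM in young cells, the lectin Mgl2 55.2 CPM and 2.66 CPM, and the chemokine Ccl17 73.7 CPM and 9.49 CPM. This list includes Mrc1, by which cells were split. The part of either response in the receptor differences was not tested.

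**Figure D5:**
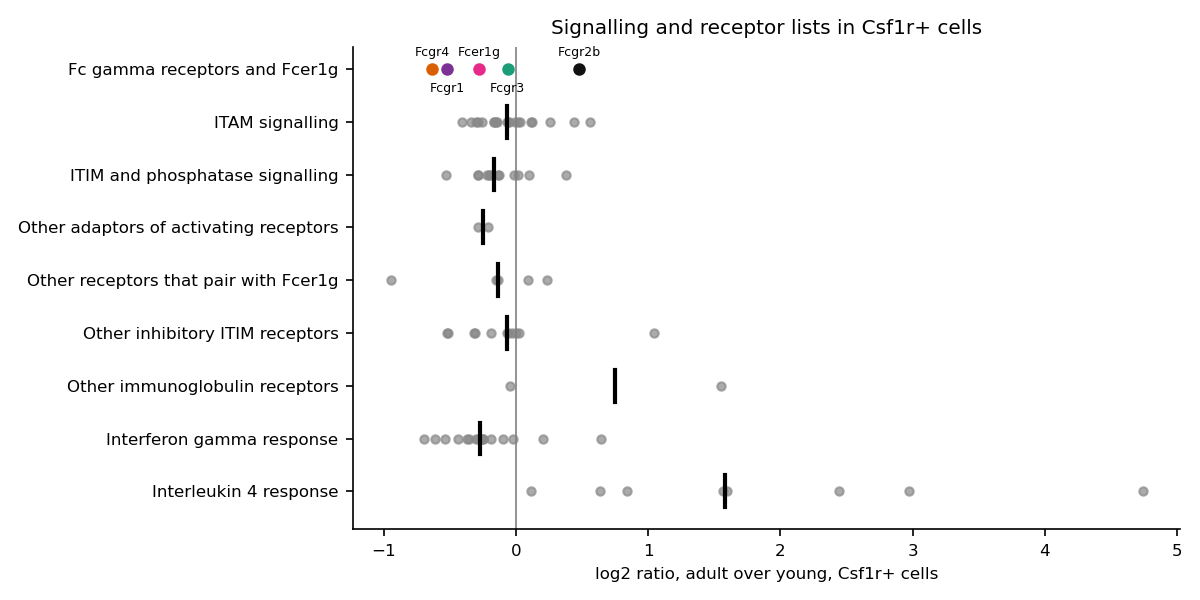
Log2 ratio of adult over young in Csf1r+ cells (x axis, 5 CPM added) of the 5 genes (top row) and of each measured gene of 8 lists (grey points), with the median of each list as a black bar. The interleukin 4 response has its median at 1.58, and the ITAM list at -0.06 lies beside the median of all genes.

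Genes with levels like those of the receptors were sought over the 20 class and library sums of at least 50 cells, by Pearson's r of log2 CPM. The sums share libraries and differ in depth, so r is a description. Among the members, Fcgr3 and Fcer1g (0.996) and Fcgr4 and Fcer1g (0.994) were close to each other. Leaving out the members and the genes that draw the classes, r with Fcer1g was highest for Spi1 (0.994) and Tyrobp (0.994), and r with Fcgr4 for Mpeg1 (0.993) and Lst1 (0.993). Of such genes, Fcgr3 was closest to Pilra (0.992) and Plbd1 (0.992), Fcgr1 to Slc7a8 (0.992) and Aif1 (0.991), and Fcgr2b to Cfp (0.989) and Prcp (0.981). Over the 13 sums of Csf1r+ subclasses alone the order changed. Fcgr1 was there most like Dhx58 (0.990), an RNA sensor of the interferon response, and Glrx (0.978). Fcgr4 was most like Aif1 (0.976) and Selenom (0.969), and Fcer1g like Itm2b (0.973) and Acvrl1 (0.973). Fcgr3 was most like Cd84 (0.952), and no gene was closer to Fcgr2b than Tomm6 (0.862). Between the members, r over these sums was 0.953 for Fcgr4 with Fcer1g, and negative for Fcgr2b with Fcgr4 (-0.54) and Fcgr1 (-0.43). The 13 sums pool both libraries, so each r includes the adult and young difference given above. It cannot show how the genes relate across subclasses of 1 library, and r within each library was not computed.

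The counts could in principle be shared between close relatives. Fcgr3 and Fcgr2b share 233 stretches of 31 bases, which is 13.4% of those of Fcgr3 and 4.15% of those of Fcgr2b. Over the last 500 bases of their transcripts, where 3' libraries mostly read, 5 of 961 stretches of Fcgr3 and 76 of 2484 of Fcgr2b were shared. No such stretch was shared by any other pair of the 5 genes. The antisense gene Gm38204, which overlaps Fcgr2b, had 10 UMIs in adult and 7 in young Csf1r+ cells.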

How the data were processed

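The authors deposited 2 matrices of UMI counts, which are raw and hold 1 value for each gene in each barcode. Reads were processed with Cell Ranger 3.0.2 on mm10, per the submitters' processing notes. How barcodes were called and which annotation was used is not given in the sources used here. No deposited barcode held fewer than 500 UMIs. The members and lists were chosen with earlier results of these data known.

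A cell was kept if it had 200 genes or more and mitochondrial UMIs of 10% or less, and 505 adult and 468 young barcodes failed. No doublet caller was run, and doublets should be taken as present. Groups were taken from the sample titles. Gates were applied in the order mCherry, neutrophil, Csf1r, then, with Csf1r at 0, T (at least 2 Cd3 UMIs), NK (Ncr1 or Klrb1c), B (Cd79a and Ms4a1, at least 2) and Ccr7 with Fscn1. UMIs were summed per class and library and given as CPM (per 1000000 UMIs), with exact Poisson intervals for levels, conditional binomial (Clopper-Pearson) intervals for ratios and exact binomial intervals for shares, all at 95%. Log2 ratios had 5 CPM added. Genes at 10 CPM or more in either library were set against the 1.5-fold limit without a p-value. Named genes are the 5 members in each class, the 3 of each list with the largest ratio in Csf1r+ cells (1 of them is not reported here), and the genes with the highest Pearson r among those at 50 CPM or more in at least 1 sum. For shares of cells with a UMI, cells were thinned to 3000 UMIs. The molecules were counted at the 3' end and not divided by length, so levels are compared between classes and libraries, not between genes.

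Tested on simulated counts of Csf1r+ cells, the limit returned 100% of 200 genes changed 2-fold and called 0 of 6091 unchanged genes. In the neutrophil gate it returned 43.5% of 200 and called 116 of 4594. The simulated counts held counting error alone, so they say nothing of how far 2 libraries of the same age would differ. Alternatives changed the cell filter, the Csf1r and mCherry limits, depth, the weight of cells and subclasses, likely doublets and the pseudocount. Scaling by the median gene ratio, leaving out shared barcodes, the mean over the larger subclasses and the thinned bins were added after the data were seen. Python 3.11.15, numpy 2.4.6, scipy 1.17.1, pandas 2.3.3 and matplotlib 3.10.9 were used.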

Additional observations from a re-analysis of the deposited data

Results flagged for a closer look

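Fcer1g ran in opposite directions in the libraries in 3 contrasts between classes, and the difference between the libraries was not tested. The log2 ratio of the neutrophil gate over Csf1r+ cells was 0.29 in the adult and -0.15 in the young library. For C1qa+ over C1qa- cells it was 0.035 in the adult and -0.017 in the young library, and for Mrc1+ over Mrc1- cells 0.018 in the adult and -0.036 in the young library. The 505 adult and 468 young barcodes removed by the cell filter, which no comparison uses, also carried receptor UMIs. Fcgr2b made up 25.2% of them in adult (23.0 to 27.5%, 1495 UMIs) and 17.9% in young barcodes (15.9 to 20%, 1430 UMIs).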

How the results depend on the processing

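In Csf1r+ cells all 70 values of the 6 main results (the log2 ratio of adult over young of each gene and the difference in Fcgr2b share) under 12 alternatives had the same sign as the values reported. Classes drawn again on thinned cells gave -0.45 for Fcgr1, -0.57 for Fcgr4 and -0.27 for Fcer1g. Thinning alone gave -0.61 for Fcgr4. Equal weight for each cell gave -0.49 for Fcgr1, -0.60 for Fcgr4 and -0.27 for Fcer1g. Scaling by the median gene ratio, which shifts all log2 ratios by about 0.03, gave -0.49 for Fcgr1, -0.036 for Fcgr3, -0.61 for Fcgr4, 0.51 for Fcgr2b and -0.25 for Fcer1g. CPM was also averaged over all 8 subclasses, of which 1 held 9 young cells, before ratios and shares were taken. This gave -0.61 for Fcgr1, -0.11 for Fcgr3, -0.58 for Fcgr4, 0.19 for Fcgr2b, -0.24 for Fcer1g and 6.40 percentage points for the share. Over the subclasses of 50 cells or more it gave -0.13 for Fcgr3, -0.58 for Fcgr4, 0.31 for Fcgr2b, -0.30 for Fcer1g and 7.40 points. The cell filter, the Csf1r and mCherry limits, the deepest 6% of cells, shared barcodes and the pseudocount moved these results by less than their counting intervals. In the other classes 519 of 530 values kept their sign. The log2 ratio of Fcgr1 in mCherry-high Csf1r- cells turned to 0.18 after thinning, against -0.57. After thinning, 12 of 289 adult and 6 of 210 young cells of this class held an Fcgr1 UMI. The cause was not tested. With 1 library per age no replicate could be left out. No paired analysis was possible because each age is 1 library and no test was made. In the neutrophil gate, with 72 adult and 37 young Fcgr2b UMIs, the log2 ratio of Fcgr2b was 0.38, and 0.021 without the cell filter. After thinning it was 1.05, over the 27 adult and 20 young cells of sufficient depth, with 162 and 96 left out.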
